A study of Homo sapiens with 6 samples.

Results

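The 10 genes described here code for the transcription factor ATF4 and for proteins whose genes it is known to control: ASNS, CHAC1, TRIB3, DDIT3, SESN2, SLC7A11 and the serine pathway enzymes PHGDH, PSAT1 and SHMT2. They were chosen by name, as known members of the ATF4 response and of serine synthesis, and all 10 were found among the 27672 genes of the expression table. Transcripts were compared between undifferentiated human embryonic stem cells (hESC, day 0) and neuromesodermal progenitor-like cells (NMP-L, day 3) made from the same line, with 3 libraries labelled as biological replicates in each condition. All cells were H9, an established human embryonic stem cell line, so both conditions rest on 1 line. The labels place the hESCs on fibronectin in DEF medium, to which bFGF (30 ng/ml) and the BMP inhibitor Noggin (10 ng/ml) were added, while the study's methods describe TESR medium on Geltrex. According to the labels, NMP-L cells spent 3 days in N2/B27 medium that held CHIR99021 (3 µM), a GSK3 inhibitor that activates Wnt signalling, together with bFGF (20 ng/ml). The study's methods also add Noggin and SB431542, an inhibitor of TGFβ receptors, late in this protocol. Basal medium, growth factors, time and cell state therefore changed together between the conditions and cannot be told apart.

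ATF4 is a bZIP transcription factor at the centre of the integrated stress response. Kinases that sense amino acid shortage, misfolded protein in the endoplasmic reticulum, double-stranded RNA or haem deficiency phosphorylate the initiation factor eIF2α. General translation then falls, while ATF4 mRNA, which carries short upstream reading frames, is translated more, so that the level of ATF4 transcripts is not a measure of ATF4 protein. ATF4 binds together with C/EBP family factors at C/EBP-ATF response elements (CARE) and raises genes for amino acid import, amino acid synthesis and tRNA charging. Serine synthesis from a glycolytic intermediate by PHGDH, PSAT1 and PSPH, and the mitochondrial conversion of serine to glycine by SHMT2, are among the pathways it feeds. Neither ATF4 protein nor phosphorylated eIF2α was measured in these libraries.

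Sequences at the starts of these genes were taken from RefSeq promoter windows, which run from 250 bases before to 50 bases after each start in a table built on GRCh38.p14. Of the 10 genes, 8 had a window, and SLC7A11 and SHMT2 are named only. The CARE letters TGATGNAA, searched on both strands, were found in 2 of these 8, ASNS and CHAC1. Over all 35116 windows 3.62% held the letters, and over the 27305 genes with a window 4.46% did. The 30 bases around each match are printed because they show the element in its context in the member genes, and the matches of SLC1A4 and NARS1 are shown beside them as the largest rises of the 2 pathway lists richest in matches. Each was relocated by exact match to GRCh37 (hg19), the build of the expression table, and is written 5′ to 3′ on the strand of the gene, with the element in capitals.
ASNS: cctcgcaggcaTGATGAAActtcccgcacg
CHAC1: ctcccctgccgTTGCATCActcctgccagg
SLC1A4: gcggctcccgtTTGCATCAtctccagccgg
NARS1: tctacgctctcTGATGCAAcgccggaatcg
The ASNS stretch lies on the minus strand at chr7:97501770-97501799, with the element between 68 and 61 bases before the RefSeq start. The CHAC1 stretch lies on the plus strand at chr15:41245449-41245478, where the letters stand on the opposite strand, TGATGCAA, from 209 to 202 bases before the start. SLC1A4 carries the same opposite-strand TGATGCAA at chr2:65216515-65216544, reaching the first transcribed base, and NARS1 (NARS in the expression table) carries TGATGCAA on its own strand at chr18:55289036-55289065, from base 15 to base 22 of the transcript. In the GENCODE annotation lifted to GRCh37, all 4 matches fell within an annotated exon of some transcript of their gene. A match describes letters and not binding, and no match in a window of this length says nothing about sites elsewhere, for example in an intron.

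Of the 10 genes, 8 rose from hESCs to NMP-L cells (edgeR quasi-likelihood test, Benjamini-Hochberg adjusted p under 0.05 over all tested genes), 0 fell, and ATF4 itself and CHAC1 did not pass. All 10 passed the filter on low counts, with no gene under 72 counts in any library. The background is high, since 55.8% of the 15517 tested genes differed, 29.1% being higher and 26.7% lower in NMP-L cells. TRIB3, DDIT3, ASNS and SLC7A11 were at least 2-fold higher, as were 9.38% of tested genes. The 3 libraries of each condition did not overlap for 8 members, with NMP-L higher in each, against 32.1% of tested genes. The median log2 fold change was 0.76 over the 10 members and 0.03 over all tested genes. The members were chosen with earlier results of these data known, so these counts describe them and are no test of the group.

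**Figure D1:**
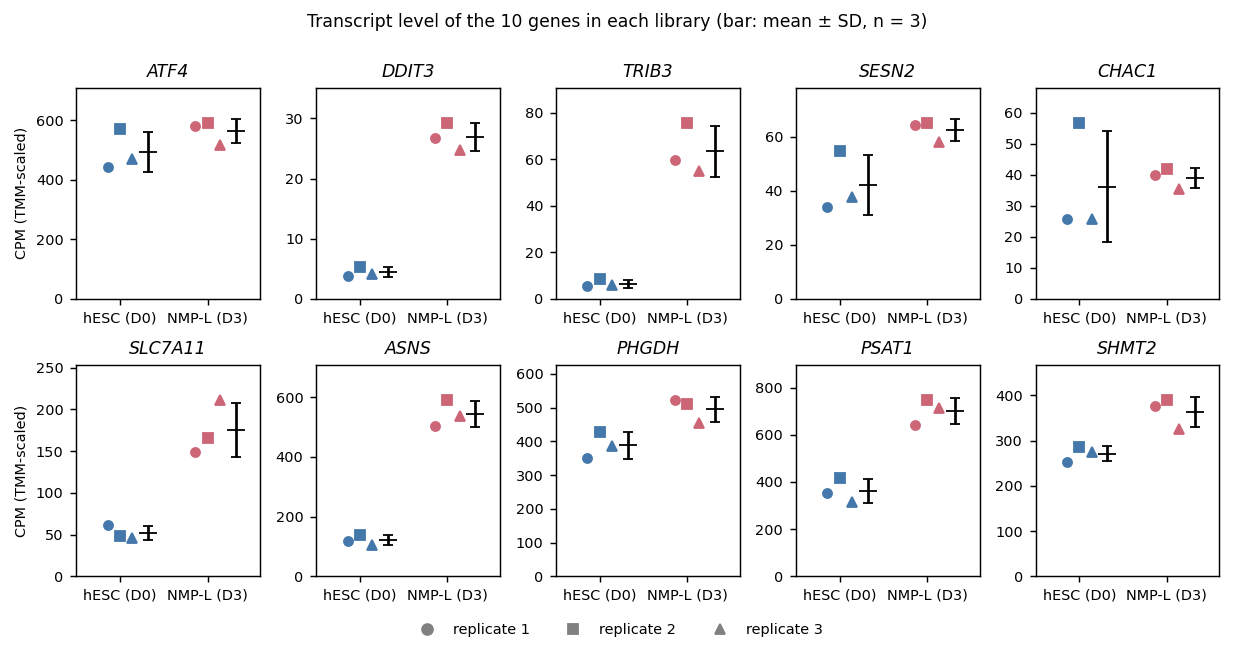
Level of each of the 10 genes in every library, in CPM scaled by TMM, with replicates 1 to 3 of hESC (day 0) in blue and of NMP-L (day 3) in red, and the mean ± SD of each condition in black beside them. Each panel starts at 0 and has its own scale. The conditions overlap for ATF4 and CHAC1, where 1 hESC library lies among or above the NMP-L libraries, and are apart for the other 8 genes.

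ATF4 (chr22:39915700-39918688, plus strand) was among the most abundant of these transcripts in both conditions. In CPM, a depth-scaled count that was adjusted between libraries by TMM, it stood at 442, 570 and 469 in hESC replicates 1, 2 and 3 and at 582, 592 and 516 in NMP-L replicates 1, 2 and 3. The second hESC library exceeded the third NMP-L library, so the conditions overlapped. The mean was 494 ± 67.7 (SD, n = 3) in hESCs and 563 ± 41.0 (SD, n = 3) in NMP-L cells. The log2 fold change was 0.19 ± 0.10 (SE), with a 95% interval from -0.03 to 0.41 and an adjusted p of 0.123. The interval holds no change as well as a modest rise. Without hESC replicate 2 the log2 fold change was 0.30 (adjusted p = 0.00916), whereas relative to the reference gene HPRT1 it was -0.11.

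TRIB3, DDIT3 and SESN2 are response genes whose products feed back on stress signalling. TRIB3 (chr20:343479-378203) codes for a pseudokinase that binds ATF4 and the kinase AKT. It stood at 5.29, 8.28 and 5.69 CPM in the hESC libraries and at 59.8, 75.8 and 54.9 CPM in the NMP-L libraries. Every NMP-L library was several times above every hESC library, and the rise, 9.86-fold, was the largest among the 10 genes. On the log2 scale it was 3.30 ± 0.18 (SE, adjusted p = 4.74e-08), at percentile 99.0 of all tested genes. Of the related pseudokinase genes, TRIB1 fell by 0.55 on the log2 scale (adjusted p = 0.000118), although relative to GAPDH its log2 fold change was 0.01, and TRIB2 rose by 0.34 (adjusted p = 0.0136). The TRIB2 call was lost relative to HPRT1 (0.03) and without hESC replicate 3 (adjusted p = 0.0662) or NMP-L replicate 3 (adjusted p = 0.0569).

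DDIT3 (chr12:57910371-57915520, minus strand) codes for CHOP, a C/EBP family factor linked to prolonged stress and cell death. Its libraries held 3.85, 5.35 and 4.07 CPM in hESCs and 26.8, 29.3 and 24.7 CPM in NMP-L cells. The conditions were far apart, with little spread in either. The change was 6.07-fold, or 2.60 ± 0.14 on the log2 scale (SE, adjusted p = 6.24e-08). Of its 1307 annotated exon bases, 105 are shared with another protein-coding gene on the same strand and 58 with MBD6 on the opposite strand. A larger part, 355 bases, is shared with MARS1 on the opposite strand (MARS in the table), the methionyl-tRNA synthetase gene. MARS was far more abundant, with 4844 to 6429 counts in hESCs and 8644 to 8850 in NMP-L cells, and rose by 0.44 (log2, adjusted p = 0.0026). Whether counting used strand is not given in the sources used here. The part of reads from MARS and the other overlapping genes in the DDIT3 values was not tested.

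SESN2 (chr1:28586029-28609002) codes for sestrin 2, a leucine-binding protein that restrains mTORC1. Levels were 33.9, 54.6 and 37.8 CPM in the hESC libraries and 64.3, 65.1 and 58.0 CPM in the NMP-L libraries. The conditions did not overlap, although hESC replicate 2 came close to the NMP-L range. The log2 fold change was 0.57 ± 0.15 (SE, adjusted p = 0.00735). It did not pass without hESC replicate 3 (adjusted p = 0.0629) or relative to HPRT1 (log2 fold change 0.27). The other sestrins were also higher, SESN1 by 0.52 (adjusted p = 0.00153) and SESN3 by 0.46 (adjusted p = 0.0401), the latter with overlapping libraries. Neither passed relative to HPRT1, and SESN3 also did not pass when either of hESC replicates 2 and 3 or NMP-L replicates 2 and 3 was left out.

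CHAC1 and SLC7A11 act on glutathione, the main thiol of the cell, in opposite ways. CHAC1 (chr15:41245160-41248710) codes for an enzyme that degrades glutathione. It stood at 25.7, 56.7 and 25.8 CPM in hESCs and at 39.8, 41.7 and 35.3 CPM in NMP-L cells. The second hESC library was above all NMP-L libraries and the other hESC libraries were below them, so that the sign of the difference depended on which library was included. With all 6 libraries the log2 fold change was 0.11 ± 0.25 (SE), with a 95% interval from -0.44 to 0.65 and an adjusted p of 0.733. Without hESC replicate 2 it was 0.59 (adjusted p = 0.00135), without hESC replicate 1 it was -0.12 and without hESC replicate 3 it was -0.11. Its paralogue CHAC2 was low in both conditions, with a log2 fold change of -0.29 (adjusted p = 0.123).

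SLC7A11 (chr4:139085251-139163503, minus strand) codes for the cystine importer xCT, which supplies cysteine for glutathione. It measured 61.8, 48.0 and 46.2 CPM in the hESC libraries. In the NMP-L libraries it measured 149, 165 and 211 CPM. No library of either condition came near the other condition. The rise was 3.37-fold, or 1.75 ± 0.14 on the log2 scale (SE, adjusted p = 1.3e-06). Of its 9645 annotated exon bases, 865 are shared with the lncRNA gene SLC7A11-AS1 on the opposite strand, whose part in these values was not tested. The partner subunit SLC3A2, the heavy chain shared with other amino acid exchangers, rose by 1.00 (adjusted p = 2.01e-06), from 175, 208 and 186 CPM to 387, 397 and 353 CPM.

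ASNS (chr7:97480989-97501854, minus strand) codes for asparagine synthetase, whose CARE is printed above. Levels rose from 117, 139 and 105 CPM in hESCs to 503, 590 and 537 CPM in NMP-L cells. The conditions were well separated in every library, by 4.51-fold, or 2.17 ± 0.11 on the log2 scale (SE, adjusted p = 2.39e-08). ASNS was the only member with fractional expected counts, because RSEM divided some of its reads. It shares 2415 of its 4896 annotated exon bases with a lncRNA gene on the same strand, and the annotation used for the deposited counts is not given in the sources used here.

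The serine enzyme genes rose less than TRIB3, DDIT3, ASNS and SLC7A11, although PSAT1 rose more than SESN2. PHGDH (chr1:120191034-120286841), the first enzyme of serine synthesis, stood at 349, 428 and 386 CPM in hESCs and at 521, 510 and 453 CPM in NMP-L cells. The libraries did not overlap, but the nearest values of the conditions lay close together. The log2 fold change was 0.35 ± 0.09 (SE, adjusted p = 0.00579), and relative to HPRT1 it was 0.05 and did not pass. PSAT1 (chr9:80912041-80945009), the aminotransferase of the next step, measured 352, 416 and 315 CPM in hESCs and 640, 746 and 713 CPM in NMP-L cells. Its conditions were apart by 1.94-fold, with a log2 fold change of 0.95 ± 0.10 (SE, adjusted p = 1.2e-05). PSPH, the phosphatase of the last step, rose by 0.36 (log2, adjusted p = 0.0142), from 34.8, 41.3 and 35.8 CPM to 42.8, 52.7 and 47.7 CPM, and did not pass relative to HPRT1 or without hESC replicate 1, hESC replicate 3 or NMP-L replicate 2. SHMT2 (chr12:57623356-57628718), the mitochondrial serine hydroxymethyltransferase, stood at 254, 286 and 274 CPM and then at 377, 389 and 326 CPM. The conditions were apart, with a log2 fold change of 0.43 ± 0.09 (SE, adjusted p = 0.00133) that did not pass relative to HPRT1 (0.12). Of the 4592 annotated exon bases of SHMT2, 352 are shared with a lncRNA gene and 33 with NDUFA4L2, both on the opposite strand. Their part in the SHMT2 values was not tested. The cytosolic enzyme SHMT1 rose by 0.57 (adjusted p = 0.000194), and MTHFD2, the mitochondrial folate enzyme that works downstream of SHMT2, rose by 0.48 (adjusted p = 0.000346), and neither passed relative to HPRT1.

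**Figure D2:**
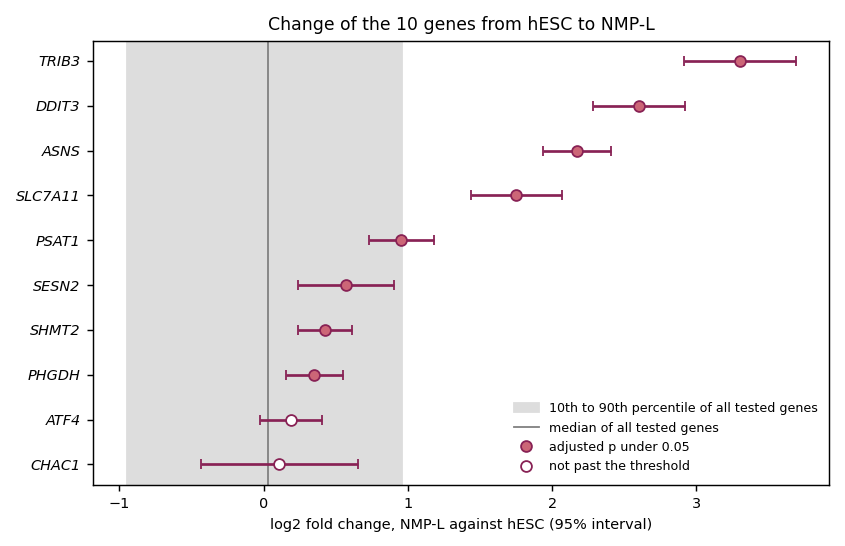
Log2 fold change of each gene, NMP-L against hESC, with its 95% interval from the edgeR fit of 3 libraries per condition. Filled points passed the threshold, the grey band spans the 10th to the 90th percentile of all tested genes (-0.95 to 0.96) and the vertical line is their median. TRIB3, DDIT3, ASNS and SLC7A11 lie outside the band, PSAT1 at its edge, and the intervals of ATF4 and CHAC1 include 0.

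Two-sided exact permutation tests on log2 CPM, which cannot go below 0.1 with 3 against 3 libraries, gave this smallest value for the 8 genes that passed. The same exact test gave 0.2 for ATF4 and 0.6 for CHAC1. ASNS, TRIB3, DDIT3, SLC7A11 and PSAT1 kept their direction and passed in every alternative run, including scaling to GAPDH or to HPRT1. In bulk RNA, more cells expressing a gene and more transcript per cell cannot be told apart.

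Levels between genes were compared in TPM, a depth-scaled level that is also divided by transcript length. In hESCs ATF4 was highest at 738 ± 86.8 TPM (SD, n = 3), followed by PHGDH at 401 ± 33.1, PSAT1 at 334 ± 42.3, SHMT2 at 255 ± 10.3 and ASNS at 130 ± 17.5 TPM. The other 5 genes lay between 6.26 and 40.7 TPM. PHGDH and PSAT1 overlapped between libraries, as did CHAC1 and SESN2, and SLC7A11 and DDIT3, while the other neighbours in the order were apart. The serine enzymes therefore already stood at high levels before differentiation, and TRIB3 was the lowest of the 10.

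The order changed in NMP-L cells. ATF4 was again highest at 903 ± 35.8 TPM (SD, n = 3), followed by PSAT1 at 694 ± 62.8 and ASNS at 631 ± 50.1, whose libraries overlapped, and then PHGDH at 548 ± 22.4 and SHMT2 at 366 ± 20.9 TPM. DDIT3 at 69.2 ± 4.53 and TRIB3 at 68.4 ± 10.4 TPM overlapped, and CHAC1, SLC7A11 and SESN2 followed between 38.7 and 47.2 TPM, each overlapping the next. The summed level of the 10 genes was 1951 ± 203 TPM in hESCs and 3404 ± 124 TPM in NMP-L cells (SD, n = 3). DDIT3 and TRIB3 thus moved from below CHAC1 to above it, without overlap in NMP-L libraries.

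Within the hESC condition, 1 library was high for most of these genes. Replicate 2 was the highest hESC library for 9 of the 10 members, all but SLC7A11, whereas it was the highest for 33.9% of all tested genes. Its median deviation from the condition mean was 0.22 on the log2 CPM scale over the members and -0.0021 over all tested genes. CHAC1 deviated most, with 1.14 log2 units between its highest and lowest hESC library, followed by SESN2 with 0.69 and TRIB3 with 0.64. SHMT2 spread least, with 0.17. No test is attached to this pattern, because the members share a library and are not independent.

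Among NMP-L libraries, replicate 2 was the highest for 8 of the 10 members, compared with 30.1% of tested genes, and replicate 3 was the lowest for 7, compared with 41.3%. SLC7A11 again differed, being highest in replicate 3. Spreads were smaller than in hESCs for 8 of the members, and larger for SLC7A11 and SHMT2. Without hESC replicate 2, all 10 genes passed as higher in NMP-L cells, ATF4 and CHAC1 included, compared with 4126 of 15799 tested genes. That library was the highest hESC library for 9 of the 10, so leaving it out favours a rise and is no test. Without hESC replicate 3 instead, 7 of the 10 passed and CHAC1 stood at -0.11.

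**Figure D3:**
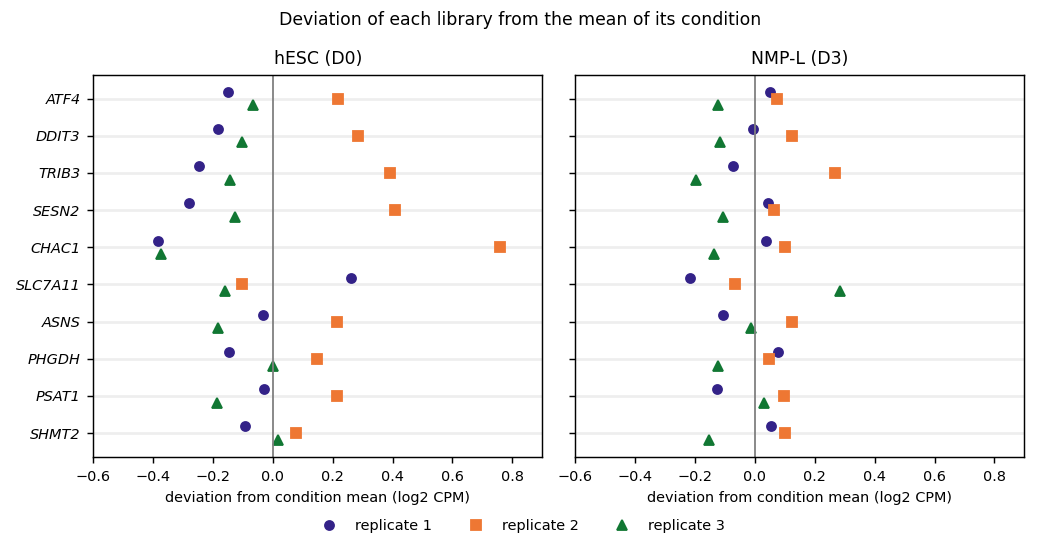
Deviation of each library from the mean of its own condition, in log2 CPM, for each of the 10 genes, with hESC on the left and NMP-L on the right and a marker for each of the 3 replicates. In hESCs, replicate 2 lies to the right for every gene except SLC7A11 and furthest for CHAC1, and NMP-L deviations are mostly narrower.

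Totals were between 19454543 and 23036426 expected counts per library, and the floor of 3 counts lay between 0.13 and 0.154 CPM before TMM scaling. The 4 hESC markers (POU5F1, NANOG, TDGF1, DPPA4) were all lower in NMP-L cells, and 5 of 6 NMP-L markers were higher, led by T, CDX2, SP5 and CDX1, with SOX2 not past the threshold. Summed endoderm markers ranged from 0.46 to 0.84 TPM in hESC libraries and from 12.2 to 22.1 TPM in NMP-L libraries. Of these 5 markers only FOXA2 was abundant enough to be tested, and SOX17 had no more than 3 counts in any library. Summed neural crest markers fell from between 24.7 and 29.2 TPM to between 2.94 and 3.71 TPM, led by FOXD3, with PAX3 at no more than 3 counts. Summed neural markers went from between 5.20 and 6.38 TPM to between 9.45 and 11.9 TPM. Within them only SOX1 passed, rising from 0.203 to 5.94 TPM on average (adjusted p = 7.58e-08), while DCX, the most abundant in hESCs, and ELAVL4 did not pass. PAX6, too low to be tested, was counted 3, 8 and 7 times in the hESC libraries and 1, 0 and 0 times in the NMP-L libraries. NEUROG2 had no more than 3 counts in any library. Paraxial mesoderm markers (7.22 to 8.88 TPM, then 5.65 to 7.29 TPM) and trophoblast markers (38.8 to 44.5 TPM, then 52.0 to 57.4 TPM, nearly all TFAP2C) were the remaining lists. The part of other cell types in the changes of the 10 genes was not tested.

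Upstream of ATF4, of 10 genes for eIF2α kinases, phosphatase subunits and regulators, 1 rose, 4 fell and 5 did not pass, with a median log2 fold change of -0.14. The 5 of 10 that differed stand beside 55.8% of all tested genes, and the 4 that fell beside 26.7%. EIF2AK4, which codes for the kinase GCN2 that senses uncharged tRNA, went from 387, 343 and 368 CPM in hESCs to 208, 224 and 196 CPM in NMP-L cells, a fall in every library. It fell by 0.81 on the log2 scale (adjusted p = 6.2e-06). GCN1, its activator on the ribosome, fell by 0.45 (adjusted p = 0.000388), but stood at 0.11 relative to GAPDH. EIF2AK3, the endoplasmic reticulum kinase PERK, and EIF2AK1, the haem-regulated kinase, fell by 0.39 and 0.22. EIF2S1, which codes for eIF2α itself, rose by 0.26 (adjusted p = 0.0403) with overlapping libraries. The number that differed in this list dropped from 5 to 2 without NMP-L replicate 2 and to 3 without NMP-L replicate 3. EIF2AK2, for the double-stranded RNA kinase PKR, had a log2 fold change of 0.03 and PPP1R15A, the stress-induced phosphatase subunit GADD34, one of 0.08, and neither passed. EIF2AK3, EIF2AK1, EIF2S1, EIF2AK2 and PPP1R15A were named for their role after their values were seen.

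Of 10 stress bZIP factors other than ATF4 and DDIT3, 6 rose and 1 fell (median 0.38), beside 29.1% and 26.7% of all tested genes. ATF5, the closest relative of ATF4 and also under control by upstream reading frames, stood at 12.9, 21.5 and 15.7 CPM in hESCs and at 265, 283 and 240 CPM in NMP-L cells. It rose by 3.97 ± 0.16 on the log2 scale (SE, adjusted p = 5.06e-09), or 15.7-fold, more than any of the 10 genes. CEBPB, a partner of ATF4 on CARE sequences, rose by 0.79 (adjusted p = 0.000873). JDP2, a repressor of the same family, fell by 0.37 (adjusted p = 0.0419) a call lost in 9 alternatives, and stood at 0.19 relative to GAPDH, which is 1 of them. ATF3, a stress-induced relative, had a log2 fold change of 0.35 and did not pass with all libraries, TMM scaling and no replicate block (adjusted p = 0.0622). It passed without hESC replicate 2 (0.53, adjusted p = 0.00463). With all libraries it also passed with the replicate block (0.36, adjusted p = 0.0435), with library size only, relative to GAPDH and with limma on either TPM scale. In the other alternatives it did not pass.

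Other known ATF4 targets were divided in direction. Of 20 such genes 19 could be tested (FGF21 was too low), of which 8 rose, 6 fell and 5 did not pass, with a median of -0.02. Over all tested genes 29.1% rose and 26.7% fell. NUPR1, a small stress-induced chromatin protein, was counted 2, 6 and 3 times in the hESC libraries and 79, 89 and 72 times in the NMP-L libraries, so its log2 fold change of 4.18 ± 0.34 (SE, adjusted p = 1.33e-06) rests on few hESC reads. GDF15, a secreted stress cytokine, went from 9.03, 10.1 and 9.76 CPM to 34.1, 44.9 and 29.2 CPM, a rise of 1.90 (adjusted p = 1.35e-06). VLDLR, a lipoprotein receptor, fell by 0.82 (adjusted p = 4.03e-05), and KLHL24 fell by 0.59 (adjusted p = 0.0105). Neither passed relative to GAPDH (-0.27 and -0.03), and KLHL24 also did not pass with limma on TPM (adjusted p = 0.0872 and 0.0856). DDIT4, the mTORC1 inhibitor REDD1, had a log2 fold change of -0.15 that did not pass (adjusted p = 0.138), but passed at 0.40 relative to GAPDH, at -0.44 relative to HPRT1 and at -0.23 without NMP-L replicate 1.

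Of 10 amino acid transporters, 7 rose and 2 fell, beside 29.1% and 26.7% of all tested genes, with a median of 0.48. SLC1A4, the neutral amino acid exchanger ASCT1 that carries serine, went from 0.855, 1.49 and 0.992 CPM in hESCs to 13.2, 14.6 and 12.5 CPM in NMP-L cells. Its rise of 3.58 ± 0.19 on the log2 scale (SE, adjusted p = 3.95e-08) was the largest of the list, and its start holds the CARE letters printed above. SLC7A5, the leucine exchanger LAT1, which pairs with SLC3A2, rose from 149, 211 and 163 CPM to 571, 579 and 527 CPM, by 1.68 (adjusted p = 3.58e-07). SLC7A3, a cationic amino acid transporter, fell by 1.10 (adjusted p = 1.32e-06), from 205, 213 and 237 CPM to 105, 108 and 92.5 CPM. SLC38A2, the glutamine transporter SNAT2, fell by 0.48 (adjusted p = 0.0088), although it stood at 0.09 relative to GAPDH and did not pass with limma on TPM (adjusted p = 0.0687 and 0.0688).

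Of 20 cytosolic aminoacyl-tRNA synthetases, which charge tRNAs with amino acids, 8 rose, 3 fell and 9 did not pass (median 0.18). The 11 of 20 that differed are near the 55.8% of all tested genes. NARS, for asparagine, rose by 0.92 (adjusted p = 6.33e-07), from 272, 264 and 260 CPM to 484, 520 and 504 CPM. SARS, for serine, rose by 0.81 (adjusted p = 1.78e-05). VARS, for valine, fell by 0.86 (adjusted p = 7.5e-06) and TARS, for threonine, fell by 0.39 (adjusted p = 0.00056), but TARS stood at 0.17 relative to GAPDH. The number that differed was 18 relative to GAPDH and 6 relative to HPRT1, against 11 with TMM scaling.

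Of 20 other genes of serine, glycine and folate metabolism, 13 rose, 3 fell and 4 did not pass (median 0.36). Among all tested genes 29.1% rose and 26.7% fell. Relative to HPRT1 the number of the list that differed dropped from 16 to 6. ALDH1L2, a mitochondrial enzyme that oxidises formyl-tetrahydrofolate, rose from 15.5, 12.0 and 15.3 CPM to 42.1, 50.1 and 48.5 CPM, by 1.72 (adjusted p = 4.74e-07). Its cytosolic counterpart ALDH1L1, low in both conditions, rose by 1.04 (adjusted p = 0.00364) but did not pass relative to HPRT1. MTHFD1, the cytosolic trifunctional folate enzyme, fell by 0.78 (adjusted p = 3.4e-06), from 337, 360 and 350 CPM to 208, 208 and 194 CPM. GLDC, the glycine-cleaving decarboxylase, fell by 0.66 (adjusted p = 2.89e-05), but stood at -0.10 relative to GAPDH and did not pass.

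**Figure D4:**
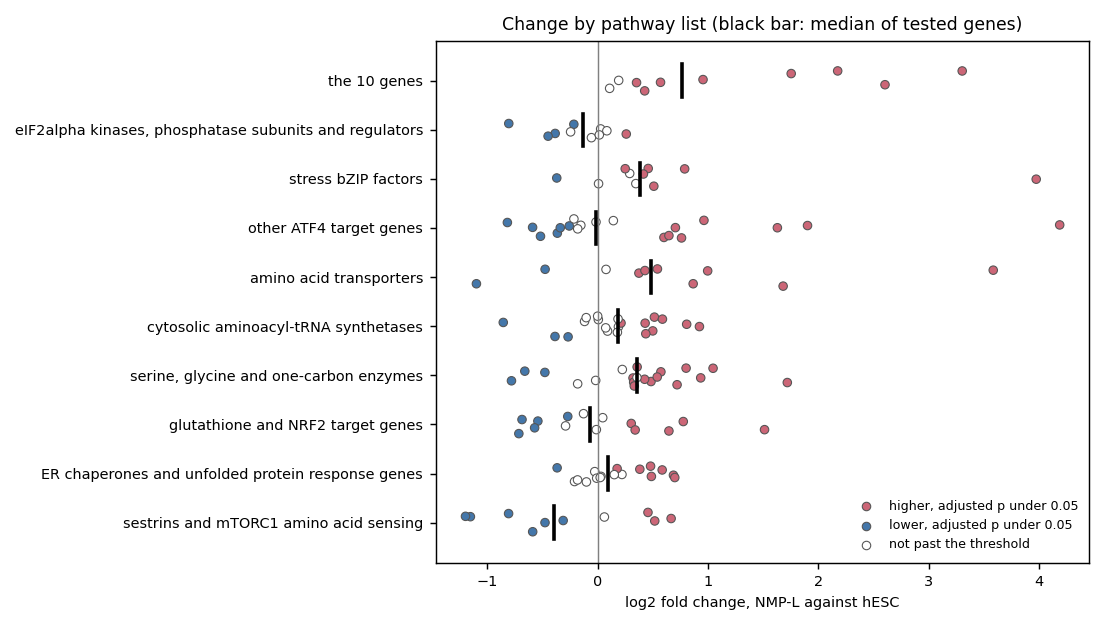
Log2 fold change, NMP-L against hESC, of every tested gene in the 10-gene group and in 9 pathway lists. Each point is 1 gene, red if higher and blue if lower at an adjusted p under 0.05 and white if not past the threshold, with the median of each list as a black bar. Medians range from 0.76 for the 10 genes and 0.48 for amino acid transporters to -0.40 for mTORC1 amino acid sensing, and ATF5, NUPR1 and SLC1A4 lie furthest to the right.

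Glutathione and NRF2 target genes were split, with 5 of 14 higher, 5 lower and a median of -0.07. Over all tested genes 29.1% were higher and 26.7% lower. NQO1, a quinone reductase, rose by 1.51 (adjusted p = 1.86e-07), from 43.9, 50.1 and 42.1 CPM to 132, 137 and 118 CPM. GCLM, the regulatory subunit of an enzyme of glutathione synthesis, rose by 0.78 (adjusted p = 6.35e-05). GCLC, the catalytic subunit of that enzyme, was named after its values were seen and fell by 0.27 (adjusted p = 0.0461). SRXN1, which repairs oxidised peroxiredoxins, fell by 0.71 (adjusted p = 0.000513), and CBS, an enzyme that makes cystathionine from homocysteine and serine, fell by 0.69 (adjusted p = 5.05e-05), and neither passed relative to GAPDH.

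Among 18 endoplasmic reticulum chaperones and unfolded protein response genes, 7 rose, 1 fell and 10 did not pass, with a median of 0.09. The 8 of 18 that differed stand beside 55.8% of all tested genes. SEL1L, part of the complex that exports misfolded proteins, and DNAJB11, a cochaperone, rose by 0.70 and 0.69 (adjusted p = 0.000483 and 2.8e-05), and neither passed relative to HPRT1 (0.41 and 0.38). HSPA5, which codes for the chaperone BiP and was named after its values were seen, rose by 0.49 (adjusted p = 0.000153), from 595, 641 and 603 CPM to 860, 910 and 806 CPM. CALR, for calreticulin, fell by 0.37 (adjusted p = 0.00187), but stood at 0.19 relative to GAPDH. The number that differed was 16 relative to GAPDH and 3 relative to HPRT1.

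Of 10 genes of the sestrin and mTORC1 amino acid sensing group other than SESN2, 3 rose, 6 fell and 1 did not pass (median -0.40). Of all tested genes 29.1% rose and 26.7% fell. CASTOR2 and its relative CASTOR1, an arginine sensor, fell by 1.20 and 1.15 (adjusted p = 1.12e-06 and 0.000125). MIOS, a subunit of the GATOR2 complex, rose by 0.67 (adjusted p = 0.000112), but did not pass relative to HPRT1. The GATOR2 genes WDR59 and WDR24, named after their values were seen, fell by 0.59 and 0.48 (adjusted p = 0.000109 and 0.00733).

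Among all 27305 genes with a RefSeq window, 4.46% held the CARE letters at their start. In these 9 lists the letters were found at the starts of 19 of the 106 genes with a window. They stood in 7 of 16 synthetase genes (AARS1, CARS1, GARS1, IARS1, MARS1, NARS1 and TARS1) and in 5 of 9 transporter genes (SLC1A4, SLC1A5, SLC3A2, SLC7A1 and SLC38A1). They were found in 3 of 9 bZIP genes (ATF3, CEBPG and JDP2) and in 0 of the 17 genes of the glutathione and mTORC1 sensing lists with a window. Of the 18 tested genes with the letters 10 rose and 2 fell. Of 87 tested genes without them 38 rose and 21 fell. Over all tested genes 29.1% rose and 26.7% fell. Synthetases and transporters make up most of the 19 genes with the letters, so the letters and the list cannot be told apart. The difference was not tested. As a description, TARS and JDP2 held the letters and were lower. ATF3, AARS, CARS, SLC38A1, PPP1R15B and MTHFD1L held them and did not pass the threshold. Among the 10 genes, CHAC1 held them and did not pass, and DDIT3, TRIB3, SESN2, PHGDH and PSAT1 rose without them in this window.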

How the data were processed

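Polyadenylated RNA of 6 libraries (3 hESC, 3 NMP-L) was made into Kapa mRNA HyperPrep libraries and read from 1 end over 76 bp. The submitters' processing notes name cutadapt 1.9.1, STAR 2.5.2a, RSEM 1.3.0, DESeq2 1.12.3 and hg19; the annotation and strand setting are not given in the sources used here. For each gene the authors deposited expected counts from RSEM, not scaled between libraries, and TPM values, scaled by effective length to 1000000 per library, in 1 table of 27672 genes, of which 0 per-sample columns were left unused.

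Rounded expected counts were fitted with edgeR 4.0.16 under R 4.3.3 (filterByExpr with a minimum count of 10, TMM, glmQLFit and glmQLFTest on condition, Benjamini-Hochberg adjusted p under 0.05 over all 15517 tested genes). CPM are TMM-scaled, with a pseudocount of 0.1 for log2 values. Each SE was derived from the log2 fold change and the square root of its F value. Library totals of 19454543 to 23036426 counts set the precision of low genes, and floors cover counting error only. Replicate numbers come from the labels. Library pairs of a condition differed by more than sampling noise (chi-square per degree of freedom from 6.74 to 18.0), so each library counted once. No batch is given in the labels. The labels call the libraries biological replicates without naming separate cultures, so that p-values measure the spread between these libraries.

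The 10 genes and the 9 pathway lists, taken from textbook roles, were chosen with earlier results of these data known. The text names the 10 genes, in each list the 2 largest rises and 2 largest falls past the threshold without overlap, listed paralogues and partners, GAPDH and HPRT1, and the genes nearest in profile to ATF4 and PHGDH, with exceptions stated. Alternatives were RLE, upper-quartile and no scaling factors, GAPDH or HPRT1 as reference, a filter of 10 counts in every library or none beyond 1 count, a replicate block, each library left out, DESeq2 1.42.0, and limma 3.58.1 on log2(TPM + 1) or log2(TPM + 0.1). Positions came from GENCODE lifted to GRCh37, and tables and plots were made with Python 3.11.15 and matplotlib 3.10.9.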

Additional observations from a re-analysis of the deposited data

How the results depend on the processing

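The number of the 10 genes that differed was 8 or 9 with other scalings, filters and tools, except for 5, all of them higher, relative to HPRT1. With a library left out it ranged from 7 (without hESC replicate 3) to 10 (without hESC replicate 2). ATF4 was 0.26 with library size only, 0.74 relative to GAPDH, 0.30 without hESC replicate 2 and 0.30 with limma on either TPM scale, all past the threshold, and -0.11 relative to HPRT1. CHAC1 was -0.19 relative to HPRT1, -0.12 without hESC replicate 1, -0.11 without hESC replicate 3 and 0.59 without hESC replicate 2. GAPDH itself fell by 0.55 and HPRT1 was at 0.28 (adjusted p = 0.0689), so that scaling to them shifted the median of all tested genes by 0.56 and -0.30, and 87.5% and 25.3% of calls were higher, against 52.1% with TMM. Relative to GAPDH the log2 fold change turned to 0.11 for GCN1, 0.19 for JDP2, 0.0904 for SLC38A2, 0.17 for TARS, 0.19 for CALR, 0.0090 for TRIB1, 0.27 for CHAC2 and 0.40 for DDIT4. Relative to HPRT1 it turned to -0.11 for AARS, -0.0747 for ATP6V0D1 and -0.0943 for UFD1. Relative to HPRT1 the genes that differed numbered 3 of the bZIP list, 6 of the synthetases, 6 of the serine and folate list and 3 of the endoplasmic reticulum list, and relative to GAPDH 18 of the synthetases and 16 of the endoplasmic reticulum list. Of the eIF2α list 3 differed with the replicate block, 3 with limma on either TPM scale, and from 2 to 5 with a library left out. The cause of these changes was not tested beyond the shifts given. Of the 10 genes 5, and of 48 other named genes 18, kept direction and side of the threshold in every alternative.

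Both conditions carry replicates 1 to 3 in the labels, but libraries with the same number did not deviate together (correlations of -0.37, -0.06 and -0.13). The replicate block gave 7560 genes that differed against 8653, and 8 of the 10 genes differed. No hESC library correlated best with the NMP-L library of its own number.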

Other observations

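The genes whose profile over the 6 libraries was most like that of ATF4, by the root mean squared difference of centred log2 CPM, were AARS (0.02), the alanyl-tRNA synthetase gene, ATP6V0D1 (0.02), a subunit of the vacuolar proton pump, and UFD1 (0.03), a ubiquitin-binding cofactor of protein export from the endoplasmic reticulum. None of them passed the threshold between conditions with all libraries and TMM scaling, but each passed relative to GAPDH, with limma on both TPM scales and without hESC replicate 2 (adjusted p = 0.0115, 0.0237 and 0.0411 in that order of genes). Nearest to PHGDH were ZNF629 (0.02), MRPL46 (0.03), a mitochondrial ribosomal protein gene, and NSMCE1 (0.03), a subunit of the SMC5/6 complex, with log2 fold changes of 0.36, 0.36 and 0.33 that passed, but not relative to HPRT1, and MRPL46 and NSMCE1 also lost their calls when some of the libraries were left out. These profiles share libraries and depth, and no test is attached to them.

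Among other short motifs in the RefSeq windows of the 8 members, the E-box CACGTG was found in ATF4, from base 82 or 85 before the start depending on the start used (7.26% of all windows). The antioxidant element core TGACNNNGC was found in TRIB3 (13.3% of all windows), and the CRE letters TGACGTCA in none of the 8 (1.85% of all windows).

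In list genes too, the second hESC library stood high for some groups. It was the highest hESC library for 7 of 10 bZIP factors, 13 of 19 other ATF4 targets, 6 of 10 amino acid transporters and 13 of 20 synthetases. The same held for 9 of 14 glutathione and NRF2 target genes, 9 of 18 endoplasmic reticulum genes and 9 of 20 serine and folate genes. It was the highest for 1 of 10 eIF2α regulators and 2 of 10 mTORC1 sensing genes, against 33.9% of all tested genes.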
